A study of Mus musculus with 4 samples.

Results

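The high mobility group (HMG) chromatin proteins are small, abundant nuclear proteins, and 7 of their genes, Hmgb1, Hmgb2, Hmgb3, Hmgn1, Hmgn2, Hmgn3 and Hmga1, were read in single cells of the E18 mouse brain. They were chosen by symbol, and all 7 were found among the 27998 genes of the Illumina table and, as 40 of 31986 isoforms, in the Nanopore table. Cortex, hippocampus and sub ventricular zone of a C57BL/6 mouse were dissociated at embryonic day 18, with no treatment or engineered allele named in the labels. The cells were captured in 1 droplet emulsion, of which a 190 cell and a 951 cell aliquot were taken, and each cDNA was read on both platforms, Illumina for short and Nanopore for long reads. Cells with at least 1400 Illumina genes were kept, which left 186 and 935 cells. Both aliquots came from 1 cell suspension, so every p-value measures technical spread and says nothing of the spread between animals.

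HMG proteins bind DNA or nucleosomes without reading a particular sequence. HMGB proteins (Hmgb1, Hmgb2 and Hmgb3) carry HMG boxes that bend DNA, and Hmgb2 is known for its high level in dividing cells. HMGN proteins (Hmgn1, Hmgn2 and Hmgn3) bind the nucleosome core and compete with linker histone H1 for chromatin. HMGA proteins such as Hmga1 hold AT-hooks that bind the minor groove of AT-rich DNA and are known from neural progenitors. In the embryonic cortex, radial glia divide and give rise to intermediate progenitors, which give rise to glutamatergic neurons, while GABAergic neurons arise in the ventral forebrain and migrate in.

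Hmgn3 and Hmga1 are shown by sequence because their isoforms encode different proteins, and the Nanopore reads tell these isoforms apart. The 4 Hmgn3 isoforms with at least 5% of the gene's Nanopore UMIs (unique molecular identifiers, each marking 1 captured cDNA molecule) share their first coding exons and part ways after chr9:83111034 on the minus strand. The coding ends below start at the same base and leave out the stop codon. Lower case marks the 73 bases that all 4 share from the start of this stretch. Capitals mark the coding bases that follow, parts of which some of the isoforms still have in common.
Hmgn3-201: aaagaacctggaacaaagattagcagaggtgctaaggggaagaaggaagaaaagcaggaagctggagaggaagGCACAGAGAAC
Hmgn3-202: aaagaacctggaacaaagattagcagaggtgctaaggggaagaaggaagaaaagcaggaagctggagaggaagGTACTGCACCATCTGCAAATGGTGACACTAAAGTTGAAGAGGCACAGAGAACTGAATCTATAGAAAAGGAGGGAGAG
Hmgn3-203: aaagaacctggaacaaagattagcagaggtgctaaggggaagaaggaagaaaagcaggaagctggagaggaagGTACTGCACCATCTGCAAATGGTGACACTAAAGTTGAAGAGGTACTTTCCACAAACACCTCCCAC
Hmgn3-205: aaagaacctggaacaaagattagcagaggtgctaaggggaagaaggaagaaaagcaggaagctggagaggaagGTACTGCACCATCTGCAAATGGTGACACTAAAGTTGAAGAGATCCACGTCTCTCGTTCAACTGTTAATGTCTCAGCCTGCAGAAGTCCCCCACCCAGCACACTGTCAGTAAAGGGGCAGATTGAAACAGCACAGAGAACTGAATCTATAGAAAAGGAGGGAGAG

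These ends lie at chr9:83110419-83111106 for Hmgn3-201, chr9:83110394-83111106 for Hmgn3-202 and Hmgn3-205, and chr9:83110969-83111106 for Hmgn3-203, in Gencode vM21 on GRCm38. Hmgn3-201 joins the shared stretch directly to its last exon and adds 11 bases, which gives the shortest reading frame of 231 bases without the stop codon. The same exon runs on in the other 3 isoforms, whose reading frames hold 297, 285 and 384 bases. Hmgn3-205 differs from Hmgn3-202 by 1 additional exon of 87 bases at chr9:83110788-83110874.

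Hmga1 has a long and a short reading frame that differ in its first coding exon. The coding stretch of that exon in Hmga1-213, at chr17:27559569-27559703 on the plus strand, is printed with the 33 bases that the short form lacks in capitals.
Hmga1-213: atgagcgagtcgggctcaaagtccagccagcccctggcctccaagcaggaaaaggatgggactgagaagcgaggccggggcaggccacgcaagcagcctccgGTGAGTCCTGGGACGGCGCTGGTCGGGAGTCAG

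The promoter of Hmgb2 is shown because this gene had mitotic genes as its nearest neighbours in level, as given further on. The 250 bases before its RefSeq start on GRCm38.p6 lie at chr8:57511593-57511842 on the plus strand. Capitals mark each TTTGAA, the letters of a cell cycle homology region element that is known from G2/M genes, and each CCAAT, the letters of a CCAAT box, on either strand.
Hmgb2 promoter: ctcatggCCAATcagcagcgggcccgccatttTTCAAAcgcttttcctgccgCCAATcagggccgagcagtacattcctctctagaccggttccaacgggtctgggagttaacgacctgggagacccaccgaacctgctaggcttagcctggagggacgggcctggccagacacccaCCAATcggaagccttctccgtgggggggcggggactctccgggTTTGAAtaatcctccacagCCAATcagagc

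CCAAT occurs 4 times in this stretch, at 243 to 239, 198 to 194, 73 to 69 and 11 to 7 bases before the start, each on the strand of the gene. TTTGAA occurs 2 times, at 30 to 25 bases on the strand of the gene and at 218 to 213 bases on the other strand. In windows of 250 bases before to 50 after the start, TTTGAA was found in 17.9% and CCAAT in 37.4% of 32851 promoters. Of the 8 promoters listed for 6 of the members, 2 held TTTGAA (Hmgb2 and Hmgb3) and 5 held CCAAT (Hmgb1, Hmgb2, Hmgb3, Hmgn1 and Hmgn2). The matches are letters in a window, with no binding measured.

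The kept cells of the 190 and the 951 cell aliquot held 1809081 and 8295650 Illumina UMIs, and 993220 and 4889148 Nanopore UMIs. The median cell held 8048.5 and 7551 UMIs by Illumina and 4394 and 4487 by Nanopore. Cells were clustered on their Illumina counts with the 7 members taken out of the clustering genes, and clusters were named from marker lists. A class with the ending "-like" is 1 or more clusters that raised at least 3 of its markers. The mature glutamatergic-like class joins 2 clusters, of 143 and 137 cells, which raised 4 and 6 of theirs. These 2 clusters also raised 2 and 5 of 8 immature glutamatergic markers. The second led with Crym and Nrp2. At clustering resolutions of 0.5 and 1.2, a cluster of 72 cells that led with these genes was named immature glutamatergic-like. The line between immature and mature glutamatergic-like cells thus depends on the clustering. The classes held 13 and 54 radial glia-like, 24 and 89 cycling-like, 17 and 68 intermediate progenitor-like, 22 and 125 immature glutamatergic-like, 43 and 237 mature glutamatergic-like, 31 and 144 immature GABAergic-like, and 17 and 125 mature GABAergic-like cells. The radial glia-like cluster raised 10 of its 10 markers, and 8 and 29 of its cells also had UMIs of more than 2 of 10 cycling markers. The cycling-like cluster raised 10 of its 10 markers, 8 of 10 immature GABAergic, 6 of 10 intermediate progenitor and 2 of 10 radial glia markers. A Cajal-Retzius-like cluster of 4 and 13 cells was too small in 1 aliquot for the tests, a cluster of 15 and 69 cells stayed unnamed, since it raised 6 immature glutamatergic markers but held none of them and 1 of another class among its leading genes, and 0 and 11 cells with markers of microglia, oligodendrocyte precursors or pericytes were set aside. The aliquots shared 13 barcodes, carried by 24 of the kept cells, and results that change without these cells are given with both values. Levels are given in CPM, the UMIs of a gene scaled to the same total for every class and aliquot, with the 190 cell aliquot first, and are compared between classes but not between genes. Fewer cells of a state within a class and less RNA per cell cannot be told apart in such sums.

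Cycling-like and radial glia-like cells held the highest Hmgb2 level, and it was low in every neuronal class. Hmgb2 reached 2749.9 and 2237 CPM in cycling-like and 2097 and 1482 CPM in radial glia-like cells. It stood at 249.9 and 295 CPM in intermediate progenitor-like and at 139 and 100.4 CPM in immature glutamatergic-like cells. In mature glutamatergic-like cells, 68.2 and 39.1 CPM remained. The GABAergic classes held 239.8 and 114 CPM when immature and 83.0 and 45.8 CPM when mature. The ranges of the 2 aliquots overlapped between the immature GABAergic-like and immature glutamatergic-like classes and between the 2 mature classes, and between no other neighbours in this order.

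Hmgb1, the most studied HMGB protein, varied over a far smaller range. It had 3078 and 3194 CPM in cycling-like cells, 1781 and 1812 CPM in radial glia-like cells and 1752 and 1785 CPM in mature GABAergic-like cells. The other 4 classes lay between 1213 and 1552 CPM. Radial glia-like and mature GABAergic-like cells overlapped, as did intermediate progenitor-like and immature glutamatergic-like cells. Hmgb3 was highest in cycling-like cells with 776 and 868 CPM, followed by immature GABAergic-like cells with 567 and 606 CPM. It was lowest in mature glutamatergic-like cells with 264 and 229 CPM, and the 4 classes in between, from mature GABAergic-like to immature glutamatergic-like, each overlapped with the next.

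Among the HMGN genes, Hmgn1 and Hmgn2 were highest in cycling-like cells, while Hmgn3 was highest in radial glia-like cells. Hmgn1 had 1037 and 1129 CPM in cycling-like cells, 899 and 899 CPM in radial glia-like cells and 455 and 508 CPM in mature glutamatergic-like cells, its lowest class. Hmgn2 had 2212 and 1589.9 CPM in cycling-like, 849 and 702 CPM in radial glia-like, and 142 and 132 CPM in mature glutamatergic-like cells. Its aliquots lay far apart in immature GABAergic-like cells, with 895 and 381 CPM, and the radial glia-like, immature GABAergic-like and intermediate progenitor-like classes overlapped.

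Hmgn3 ran in another order than its relatives. It had 477 and 493 CPM in radial glia-like cells, against 164 and 181 CPM in cycling-like and 151 and 159.6 CPM in intermediate progenitor-like cells. It went on to 139 and 135 CPM in immature and 99.5 and 134 CPM in mature glutamatergic-like cells, and to 70.2 and 67.8 CPM in immature and 51.8 and 52.3 CPM in mature GABAergic-like cells. No neighbours in this order overlapped. Hmga1 was barely detected by Illumina, with 15 and 42 UMIs in all kept cells and 0 to 22.5 CPM in the classes of the tests, so an order of classes was not detectable at this depth.

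**Figure D1:**
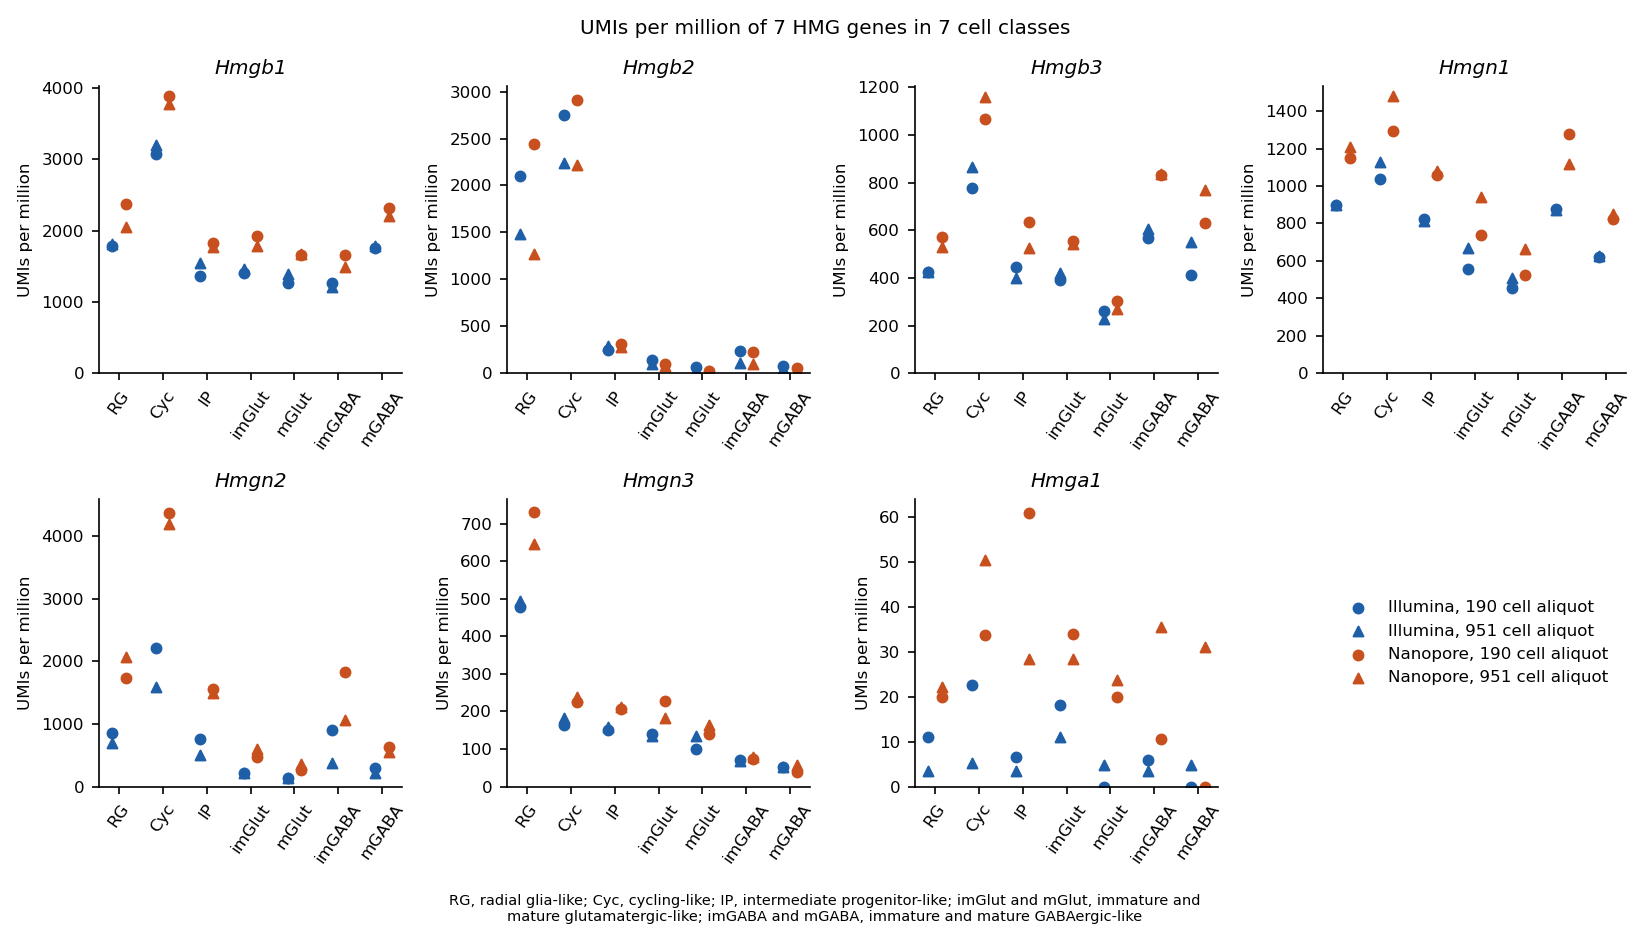
Level of the 7 HMG genes in each cell class, in CPM, with Illumina in blue and Nanopore in orange, circles for the 190 cell aliquot and triangles for the 951 cell aliquot. Hmgb2 and Hmgn2 lie high in the cycling-like cells and low in mature glutamatergic-like cells, and Hmgn3 lies at 477 and 493 in radial glia-like cells by Illumina and at 181 or less in the other classes of the tests.

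Within the radial glia-like class, Hmgb2 was high in cells that also showed cycling markers. The 8 and 29 radial glia-like cells with UMIs of more than 2 cycling markers held 2418 and 1969 CPM of Hmgb2, and the 5 and 25 cells with at most 2 held 549 and 402 CPM. Hmgb1 split in the same direction, with 1929 and 2086 against 1066 and 1205 CPM. Hmgn2 did so too, with 924 and 828 against 484 and 421 CPM. Hmgb3 had 455 and 462 against 291 and 344 CPM, and Hmgn1 911 and 978 against 839.7 and 723 CPM. Hmgn3 had 496 and 536 against 388 and 398 CPM, so both parts of the class lay above every other class of the tests. These are descriptions of cells split by their own counts, with no test.

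Across radial glia-like and cycling-like cells together, Hmgb2 was higher in cells with UMIs of more cycling markers. It stood at 685 and 536 CPM with none of the 10 markers, at 372 and 527 CPM with 1 to 2, at 895 and 1178 CPM with 3 to 5, at 2425 and 2070.1 CPM with 6 to 8, and at 2913 and 2528 CPM with 9 to 10. Hmgb1 went from 571 and 1402 CPM with none to 2824 and 2952 CPM with 9 to 10 markers. Hmgn3 showed no such order, with 228 and 330.0 CPM at none and 284 and 329.9 CPM at 9 to 10. The bins of the 190 cell aliquot held 2 to 22 cells, so the lowest bins rest on few UMIs.

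**Figure D2:**
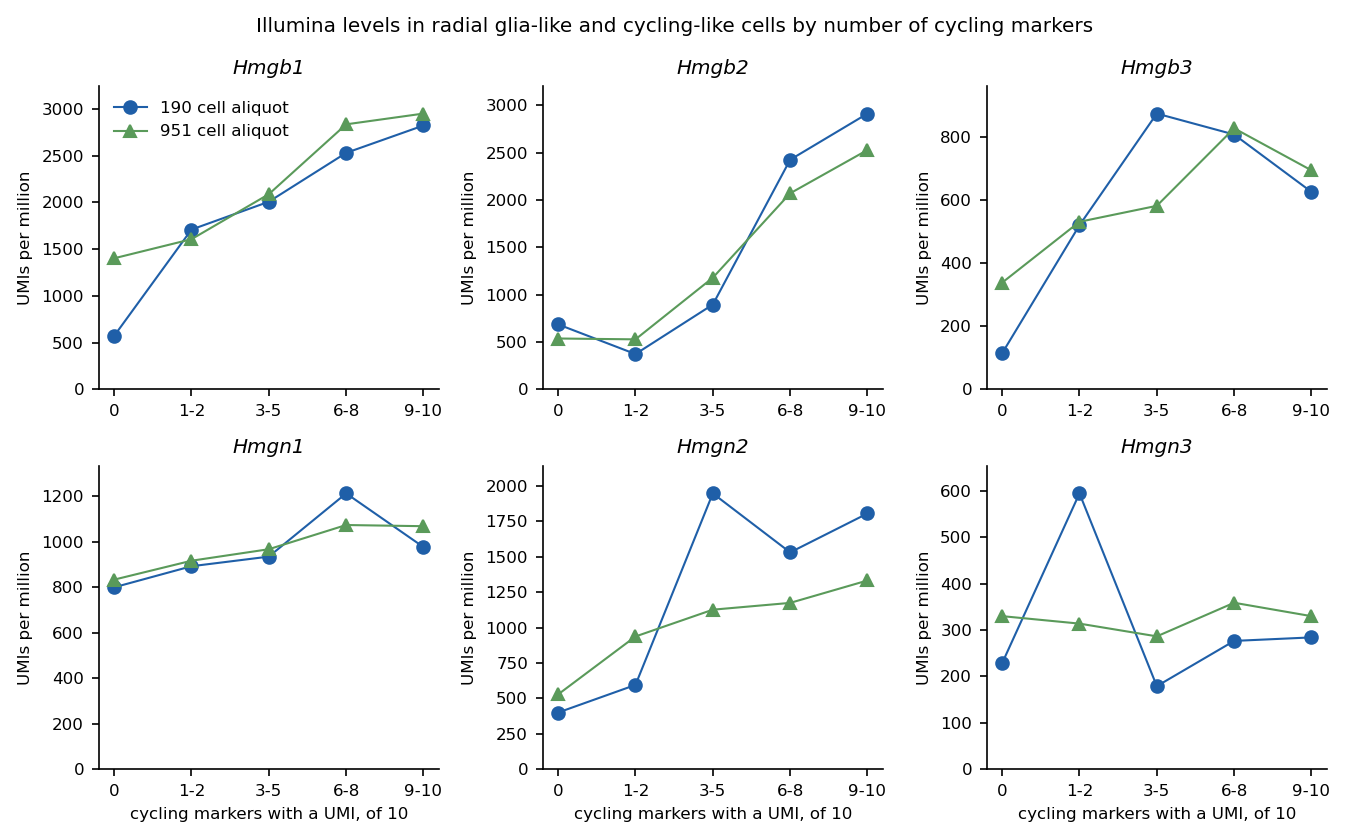
Illumina level, in CPM, of 6 HMG genes in radial glia-like and cycling-like cells by the number of the 10 cycling markers with a UMI, with circles for the 190 cell and triangles for the 951 cell aliquot and lines that join the bins of an aliquot. Hmgb2 goes from 685 and 536 with none to 2913 and 2528 with 9 to 10 markers, and Hmgn3 ends at 284 and 329.9.

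The level also varied from cell to cell within a class. In UMIs per 10000, the median Hmgb2 level was 8.90 in radial glia-like cells with quartiles of 3.64 and 22.2, and 21.9 in cycling-like cells with quartiles of 14.1 and 32.0. A UMI of Hmgb2 was found in 95.5% of radial glia-like, 80.0% of intermediate progenitor-like, 53.1% of immature glutamatergic-like, 37.5% of mature glutamatergic-like, 41.7% of immature GABAergic-like and 19.7% of mature GABAergic-like cells. The median depths of these cells were from 4848 UMIs (mature GABAergic-like, 951 cell aliquot) to 13128 UMIs (mature glutamatergic-like, 190 cell aliquot), so the shares are not compared across classes. For Hmgn3 the medians were 4.62 in radial glia-like and 1.17 in cycling-like cells.

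The low Hmgb2 level of mature neurons was set beside the summed level of 20 G2/M genes in the same sums. Hmgb2 amounted to 0.436 and 0.432 of that sum in cycling-like cells, 0.493 and 0.518 in radial glia-like cells, 0.435 and 0.561 in mature glutamatergic-like cells and 0.471 and 0.519 in mature GABAergic-like cells. In intermediate progenitor-like cells the ratio was higher, with 1.09 and 1.38, and it was 0.852 and 1.098 in immature glutamatergic-like and 0.976 and 0.970 in immature GABAergic-like cells. The mature classes held Hmgb2 and the G2/M genes in about the ratio of the cycling-like cells, while the intermediate progenitor-like and immature classes held more Hmgb2 per G2/M UMI. More than 2 cycling markers were found in 6 of 43 and 9 of 237 mature glutamatergic-like and in 1 of 17 and 0 of 125 mature GABAergic-like cells. They were also found in 1 of 17 and 6 of 68 intermediate progenitor-like, 1 of 22 and 1 of 125 immature glutamatergic-like and 1 of 31 and 2 of 144 immature GABAergic-like cells. The 5 genes of an erythroid list, a cell type that is no class here, summed to 454 to 745 CPM in the 190 cell aliquot and 518 to 619.6 CPM in the 951 cell aliquot over the classes of the tests. Whether the cells themselves made a part of these UMIs was not tested, so the sum is at most a rough measure of free RNA. The parts of free RNA and of cells with more than 2 cycling markers in the low Hmgb2 level were not tested.

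Differences between classes were tested on sums per class and aliquot, with edgeR's quasi-likelihood test and Benjamini-Hochberg adjustment over 8562 Illumina or 5078 Nanopore genes, and a gene was called at an adjusted p under 0.05. Each class had n = 2 aliquots. Differences are log2 values ± SE, and all adjusted p-values below come from these fits unless another tool is named. The Illumina and Nanopore counts of an aliquot come from the same cDNA molecules, so the second platform is a second reading and not a replicate.

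Cycling-like cells held more Hmgb1, Hmgb3 and Hmgn2 and less Hmgn3 than radial glia-like cells. The cycling-like cluster also raised markers of GABAergic cells and intermediate progenitors, so lineage and cycling cannot be told apart in this contrast. By Illumina, Hmgb1 was higher by 0.80 ± 0.16 (adjusted p = 0.0003776), Hmgb3 by 0.95 ± 0.20 (adjusted p = 0.0006502) and Hmgn2 by 1.29 ± 0.29 (adjusted p = 0.008879). Hmgn3 differed by -1.48 ± 0.21 (adjusted p = 1.016e-06), which is 2.79-fold lower. These are 4 of 7 members, where 11.6% of all genes were called. Nanopore called the same 4 with 0.84 ± 0.13, 1.07 ± 0.17, 1.19 ± 0.16 and -1.50 ± 0.20, beside 15.7% of all genes. The median over the members was 0.80 by Illumina and 0.84 by Nanopore, against -0.01 and 0.03 over all genes tested.

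Hmgb2 was not called in this comparison, at 0.48 ± 0.28 by Illumina (adjusted p = 0.3501) and 0.55 ± 0.29 by Nanopore. Hmgn1 was not called either, at 0.27 ± 0.18 (adjusted p = 0.4083), nor was Hmga1, at 1.06 ± 1.07. With the aliquot as a block, Hmgb2 was called on both platforms, at 0.50 (adjusted p = 7.513e-05) and 0.60 (adjusted p = 7.619e-07), where the block called 19.2% and 21.8% of all genes. Its 2 aliquots lay apart in both classes, and the summed G2/M list lay apart in the same way, with 4249 and 2859.7 CPM in radial glia-like and 6302 and 5184 CPM in cycling-like cells. The part of this imbalance in the result was not tested. At clustering resolutions of 0.5 and 1.2, the Illumina difference of Hmgn2 stayed at 1.46 and 1.34 and was no longer called (adjusted p = 0.05128 and 0.1043).

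Without the radial glia-like cells of more than 2 cycling markers, 5 of the 6 members tested by Illumina lay further from their level in cycling-like cells, and Hmgn3 lay nearer. Such cells were kept in the cycling-like class, a choice made after the data were seen, so these values restate the split above and are given with no test. By Illumina, Hmgb2 was then at 2.65, Hmgn2 at 2.27, Hmgb1 at 1.63, Hmgb3 at 1.47 and Hmgn1 at 0.70, while Hmgn3 went from -1.48 to -1.03. By Nanopore, Hmgb2 was at 2.78, Hmgn2 at 1.98, Hmgb1 at 1.58, Hmgb3 at 1.51 and Hmgn1 at 0.71, while Hmgn3 went from -1.50 to -1.16. In the 190 cell aliquot the radial glia-like level of Hmgb2 then rests on 5 cells with 17 Illumina UMIs of the gene, which holds for the other contrasts of this setting too.

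Intermediate progenitor-like cells held less Hmgb2 and less Hmgn3 than radial glia-like cells. By Illumina, Hmgb2 differed by -2.70 ± 0.31 (adjusted p = 1.468e-05) and Hmgn3 by -1.64 ± 0.22 (adjusted p = 2.375e-07), which are 6.49-fold and 3.12-fold lower. These were 2 of 7 members, beside 15.5% of all genes. Nanopore called the same pair with -2.62 ± 0.36 and -1.72 ± 0.22, beside 19.7% of all genes. The other 5 members lay between -0.35 and -0.03 by Illumina, Hmgb1 at -0.31 ± 0.16 (adjusted p = 0.2034) among them. With the aliquot as a block, Hmgb1 was called too, at -0.30 on both platforms (adjusted p = 0.02855 and 0.03595), and Nanopore also called Hmgn2 at -0.39 (adjusted p = 0.006394). The block called 21.8% of all genes by Illumina and 24.3% by Nanopore.

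The difference in Hmgb2 was smaller when cells of more than 2 cycling markers were left out of both classes. Cells in S phase can stay in this setting. The radial glia-like cells of at most 2 cycling markers held 484 and 1794 CPM of 20 S phase genes summed. Those of more than 2 held 1929 and 2172 CPM, and mature glutamatergic-like cells held 367 and 356 CPM. Among cells of at most 2 cycling markers, Hmgb2 differed by -0.73 ± 0.28 by Illumina and was no longer called (adjusted p = 0.09147), nor was it by Nanopore, at -0.57 ± 0.30 (adjusted p = 0.2588). Hmgn3 was the 1 member still called, at -1.33 ± 0.28 (adjusted p = 0.0003968) by Illumina and at -1.48 ± 0.27 (adjusted p = 1.245e-05) by Nanopore. The signs of Hmgb1, Hmgb3, Hmgn1 and Hmgn2 turned positive by Illumina in this setting, at 0.39, 0.36, 0.20 and 0.60, with none called. The setting called 9.42% of the Illumina and 11.6% of the Nanopore genes.

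The step from intermediate progenitor-like to immature glutamatergic-like cells brought lower Hmgn2 and Hmgb2. By Illumina, Hmgn2 differed by -1.58 ± 0.31 (adjusted p = 0.00752) and Hmgb2 by -1.32 ± 0.33 (adjusted p = 0.0311), 2 of 7 members beside 5.15% of all genes. Nanopore called Hmgn2 alone, at -1.47 ± 0.18 (adjusted p = 1.072e-07), beside 6.22% of all genes, with Hmgb2 at -1.83 ± 0.48 (adjusted p = 0.05368). The Hmgb2 call by Illumina was lost with DESeq2, at -1.28 (adjusted p = 0.1146), and without the cells of shared barcodes, at -1.29 (adjusted p = 0.09512). Other clusterings ended it as well, with the members kept among the clustering genes (adjusted p = 0.1212), with cell cycle genes taken out of them (adjusted p = 0.06786), with the unnamed cluster added to the immature class (adjusted p = 0.06746) and at resolution 1.2 (adjusted p = 0.09658), where the Hmgn2 call was lost too (adjusted p = 0.06423). With the aliquot as a block, Nanopore called Hmgb2 at -1.80 (adjusted p = 3.085e-11) and Illumina added Hmgn1 at -0.40 (adjusted p = 0.01902), beside 10.2% and 9.97% of all genes.

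From immature to mature glutamatergic-like cells, Illumina called no member with edgeR, beside 4.26% of all genes, and 2 members had an unadjusted p under 0.05. Hmgb2 stood at -1.06 ± 0.34 (adjusted p = 0.1076) and Hmgb3 at -0.62 ± 0.20 (adjusted p = 0.06555). At clustering resolution 1.2, where a cluster that led with Crym and Nrp2 was named immature glutamatergic-like, Hmgb3 turned to 0.089 (adjusted p = 0.9511). Nanopore called Hmgb3 at -0.84 ± 0.18 (adjusted p = 0.0003828) and Hmgn2 at -0.70 ± 0.18 (adjusted p = 0.01244), beside 6.1% of all genes. The Hmgn2 call was lost without a filter on low counts (adjusted p = 0.1304) and with DESeq2, at -0.74 (adjusted p = 0.1435), which called none of the members by Illumina. Hmgb1 did not separate the classes, at 0.01 ± 0.16 by Illumina and -0.03 ± 0.13 by Nanopore. With the aliquot as a block, Illumina called Hmgb2 at -1.16 (adjusted p = 1.093e-05), Hmgb3 at -0.67 (adjusted p = 7.045e-05) and Hmgn2 at -0.59 (adjusted p = 0.04097), beside 11.4% of all genes. The block added Hmgb2 at -1.77 (adjusted p = 8.365e-07) and Hmgn1 at -0.42 (adjusted p = 0.009753) for Nanopore, beside 11.9% of all genes.

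Mature GABAergic-like cells held less Hmgb2 and Hmgn2 than immature GABAergic-like cells by Illumina. The immature cluster led with Ebf1, Isl1 and Zfhx3, and the mature cluster with Maf, Nxph1 and Npy. Lineage and maturity thus cannot be told apart in this contrast, which is a maturation step by name only. Hmgb2 differed by -1.68 ± 0.39 (adjusted p = 0.02972) and Hmgn2 by -1.43 ± 0.32 (adjusted p = 0.02465), beside 2.59% of all genes. Nanopore called Hmgn2 at -1.38 ± 0.19 (adjusted p = 1.311e-06) and Hmgn1 at -0.63 ± 0.17 (adjusted p = 0.01379), beside 3.01% of all genes. With DESeq2 both Illumina calls were lost, with an adjusted p of 0.0759 for Hmgb2 and of 0.06168 for Hmgn2, as was the Nanopore call of Hmgn1 (adjusted p = 0.2198). Both Illumina calls were also lost with cell cycle genes out of the clustering genes (adjusted p = 0.06272 for Hmgb2 and 0.07326 for Hmgn2), at resolutions 0.5 (0.2442 and 0.1562) and 1.2 (0.413 and 0.6777), and with the unnamed cluster added to the immature glutamatergic-like class (0.1711 and 0.1221). At resolution 1.2, Hmgn2 moved to -0.81. The Hmgb2 call alone was lost without the cells of shared barcodes, at -1.68 (adjusted p = 0.1089), and with the members kept among the clustering genes (adjusted p = 0.1242). For Nanopore, the Hmgn1 call was lost as well without a filter on low counts (adjusted p = 0.2111) and among cells of at most 2 cycling markers (adjusted p = 0.06037). The summed G2/M list stood at 246 and 118 CPM in the immature and at 176 and 88.3 CPM in the mature class, with none of its 20 genes called.

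Hmgb1 alone pointed upward in this step, at 0.37 ± 0.16 by Illumina and 0.37 ± 0.14 by Nanopore, without a call. With the aliquot as a block it was called at 0.39 on both platforms (adjusted p = 0.01117 and 0.02118). The block also called Hmgn1 at -0.60 (adjusted p = 0.000253) by Illumina and Hmgb2 at -2.14 (adjusted p = 3.666e-06) by Nanopore, beside 5.57% and 5.69% of all genes. The difference between the GABAergic and the glutamatergic maturation step was tested directly. No member was called by edgeR on either platform, where 2.15% of Illumina and 3.07% of Nanopore genes were. Lineage and maturity cannot be told apart in the GABAergic part of this test either. An unadjusted p under 0.05 was reached by none of the members for Illumina and by 2 for Nanopore, Hmgn2 at -0.69 (unadjusted p = 0.0134) and Hmgb1 at 0.40 (unadjusted p = 0.03455).

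Set directly against radial glia-like cells, mature glutamatergic-like cells were lower in 5 of 7 members by Illumina. Hmgb2 differed by -5.08 ± 0.34 (adjusted p = 1.071e-08), a 33.9-fold lower level, Hmgn2 by -2.44 ± 0.31 (adjusted p = 1.504e-05) and Hmgn3 by -1.96 ± 0.21 (adjusted p = 1.7e-10). Hmgn1 at -0.84 ± 0.18 (adjusted p = 0.0002234) and Hmgb3 at -0.74 ± 0.20 (adjusted p = 0.00276) fell less. This contrast called 33% of all genes. The members' median was -0.84, against 0.01 over all genes.

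Nanopore called these 5 and Hmgb1, beside 38.2% of all genes, with Hmgb2 at -6.23 ± 0.42 and Hmgn3 at -2.05 ± 0.19. Hmgb1 stood at -0.34 ± 0.13 by Nanopore (adjusted p = 0.02632) and at -0.38 ± 0.16 by Illumina, where it was not called (adjusted p = 0.06026). With the aliquot as a block, Illumina called it at -0.37 (adjusted p = 0.0008553), beside 43.5% of all genes. The Nanopore call of Hmgb1 was lost without a filter on low counts, at -0.19 (adjusted p = 0.6108), with DESeq2 (adjusted p = 0.09347) and without the cells of shared barcodes (adjusted p = 0.08094).

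Among cells of at most 2 cycling markers, 3 members stayed lower in mature glutamatergic-like cells than in radial glia-like cells. Hmgb2 was at -2.93 ± 0.29 (adjusted p = 3.443e-12), Hmgn3 at -1.65 ± 0.26 (adjusted p = 7.759e-07) and Hmgn2 at -1.52 ± 0.31 (adjusted p = 0.0002882), beside 21.6% of all genes. Hmgb1 turned to 0.41 ± 0.21 and was not called (adjusted p = 0.1648), and Hmgb3 and Hmgn1 lost their calls at -0.32 and -0.49 (adjusted p = 0.454 and 0.131). Nanopore called the same 3, at -3.96 for Hmgb2, -1.79 for Hmgn3 and -1.73 for Hmgn2, beside 24.7% of its genes. Hmgn3 was lower outside the radial glia-like class in every contrast against it, in the main fits and in those of at most 2 cycling markers.

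**Figure D3:**
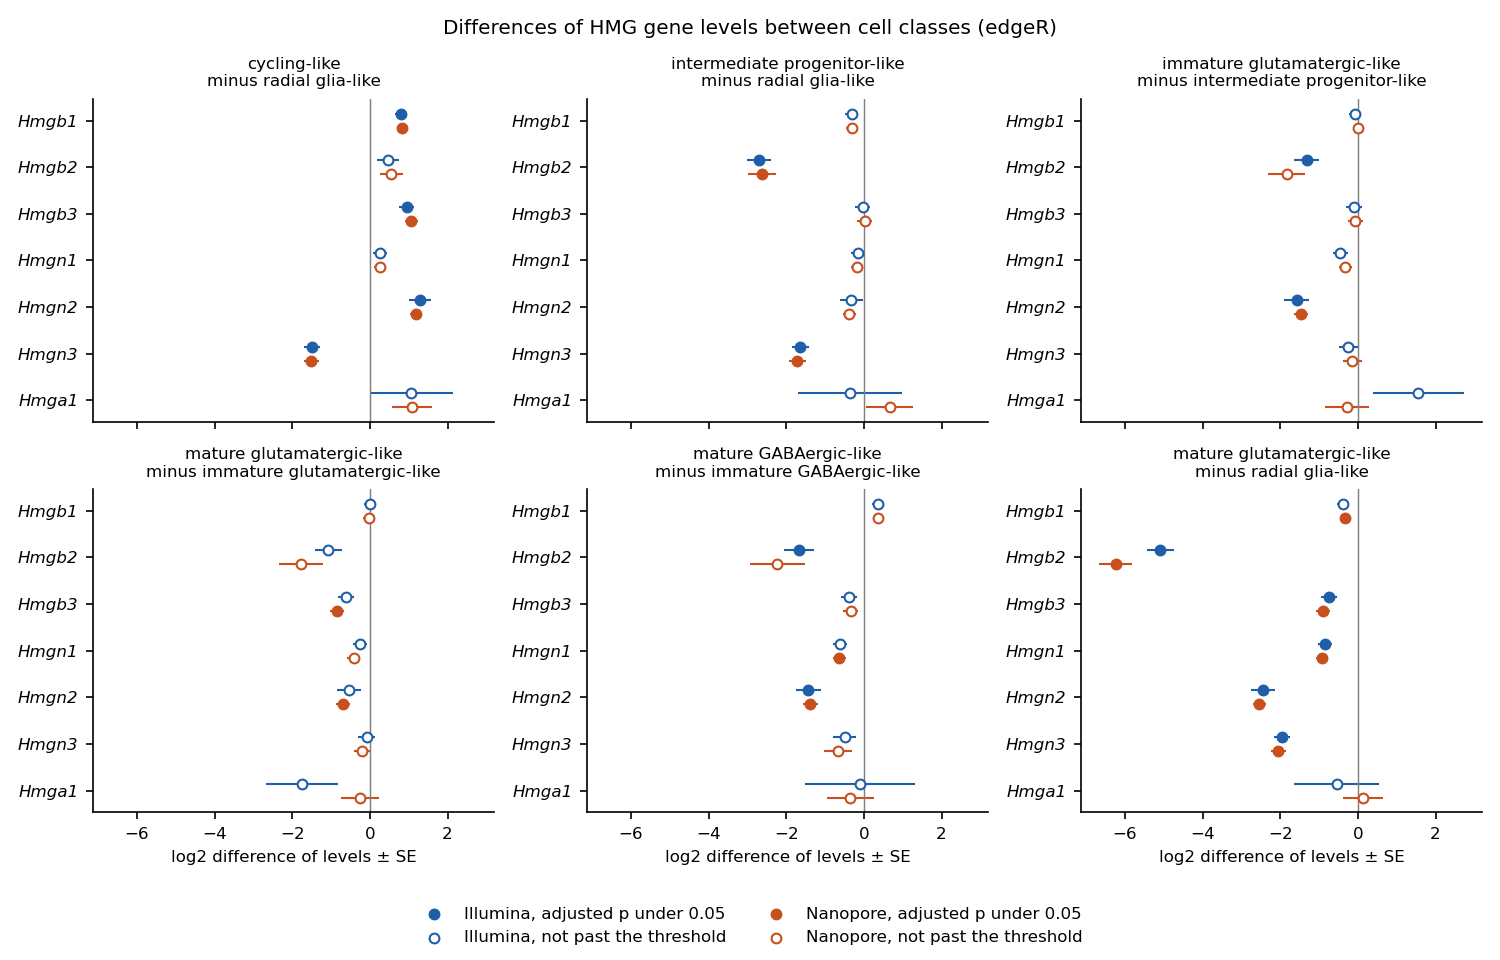
Log2 difference ± SE of the 7 HMG genes in 6 contrasts between cell classes, for Illumina and Nanopore, with filled symbols for an adjusted p under 0.05. Hmgn3 is lower than in radial glia-like cells in all 3 contrasts against them, from -1.48 to -1.96 by Illumina, while Hmgb2 ranges from 0.48 in cycling-like to -5.08 in mature glutamatergic-like cells.

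The genes whose levels ran most like those of each member over the 14 sums of class and aliquot were looked up among 3006 genes with a mean of at least 50 CPM. The measure was Pearson's r of log2(CPM + 10), and it is a description, since the sums share libraries and depth. Hmgb2 was nearest to Ube2c, Cenpa and Lockd (r of 0.98 each), of which Ube2c and Cenpa act in mitosis. Hmgn3 was nearest to Slc1a3, Plpp3 and Cd63 (r of 0.95, 0.94 and 0.93), of which Slc1a3 encodes a glial glutamate transporter. Hmgn1 was nearest to Emg1, Hist1h1e and H2afv, and Hmgn2 to Rbm3, Hist1h1e and H2afv, with r from 0.93 to 0.95 and a linker histone and a histone variant shared between them. Hmgb1 was nearest to Rhno1, Ssb and Hist1h4d (0.91 to 0.93), Hmgb3 to Hist1h2an, Cdca7 and Snrpc (0.83 to 0.88), and Hmga1, at a mean of 7.20 CPM, to Ubn1, Frat2 and Timm50 (0.78 to 0.85). Between members, Hmgn1 and Hmgn2 had the highest r (0.93), and Hmgb3 and Hmgn3 the lowest (-0.05).

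The wider HMG group was counted beside the members. Of 25 other genes with an HMG box or of the same families, 19 were tested by Illumina. In cycling-like against radial glia-like cells, Smarce1 at 0.98 and Hmgn5 at 0.84 were higher and Tcf7l1 at -4.20 was lower (adjusted p = 0.002471, 0.01 and 0.04383), 3 of 19 beside 11.6% of all genes. Smarce1, a subunit of the BAF chromatin remodelling complex, was also higher in intermediate progenitor-like cells, at 0.98, as the 1 called gene of 19 beside 15.5% of all genes. In mature glutamatergic-like against radial glia-like cells 1 was higher (Tox, 2.14) and 8 were lower, beside 33% of all genes. The lowest were Tcf7l2 at -4.44, Tcf7l1 at -3.99, Wdhd1 at -3.31 and Bbx at -3.03. Tcf7l2 had 1 and 4 Illumina UMIs in the mature class against 6 and 36. Tcf7l1 had 1 and 2 against 4 and 15, and Wdhd1 had 1 and 3 against 4 and 10. In cycling-like cells Tcf7l1 had 1 and 0 UMIs. Folds of such low counts are uncertain in size. Nanopore tested 12 of the list and called 3, 2 and 8 in these contrasts, with Smarce1 higher in all 3, beside 15.7%, 19.7% and 38.2% of all genes.

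The neuronal steps called 3, 3 and 2 of the 19 genes by Illumina, beside 5.15%, 4.26% and 2.59% of all genes. From intermediate progenitor-like to immature glutamatergic-like cells, Tcf7l2, Tox3 and Hmg20b were lower at -4.43, -1.87 and -1.36. Tcf7l2 had 0 and 1 Illumina UMIs in the immature class against 3 and 15. From immature to mature glutamatergic-like cells, Tox was higher at 1.88 and Bbx and Hbp1 lower at -1.72 and -1.30. From immature to mature GABAergic-like cells, Tox2 was higher at 2.82 and Hmgn5, a nucleosome-binding relative of the HMGN members, lower at -2.10 (adjusted p = 0.001221). Tox2 had 0 and 9 Illumina UMIs in the immature class against 6 and 40. Hmgn5 had 2 and 8 in the mature class against 9 and 50, so the size of both folds is uncertain. Nanopore called Hmg20b at -1.93, no gene and Hmgn5 at -4.30 in these steps. By Illumina, the list's medians over the 6 contrasts ran from -0.56 to 0.36.

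Among linker histones, which HMGN proteins compete with on chromatin, every called gene was higher in cycling-like cells or lower in the later of the classes compared. They were not taken out of the clustering genes, and Hist1h1b was among the 10 leading genes of the cycling-like cluster. Their calls are thus not independent of the classes. By Illumina, 3 of 7 tested were higher in cycling-like than in radial glia-like cells (Hist1h1a at 2.72, Hist1h1b at 1.55 and Hist1h1e at 0.87), beside 11.6% of all genes. Hist1h1a had 1 and 6 Illumina UMIs in radial glia-like cells against 9 and 54. Against radial glia-like cells, 2 were lower in intermediate progenitor-like cells (Hist1h1b at -2.11 and Hist1h1e at -0.83) and 4 in mature glutamatergic-like cells (Hist1h1b at -5.20, Hist1h1e at -3.29, Hist1h1d at -2.92 and H1f0 at -2.17), beside 15.5% and 33% of all genes. In the mature class, Hist1h1b had 3 and 2 Illumina UMIs against 14 and 55, and Hist1h1d had 0 and 5 against 4 and 8. H1f0, a replacement linker histone, was lower in immature glutamatergic-like than in intermediate progenitor-like cells, at -0.79. In the maturation steps, Hist1h1e was lower at -1.65 in glutamatergic-like and -1.43 in GABAergic-like cells, and H1f0 at -1.48 in the former. These 3 steps called 1, 2 and 1 of the 7, beside 5.15%, 4.26% and 2.59% of all genes. Nanopore added H1f0 at 0.72 in cycling-like cells (adjusted p = 0.002343) and Hist1h1b at -3.46 in the glutamatergic step (adjusted p = 0.02792), and it called neither Hist1h1e in the intermediate progenitor-like contrast or the maturation steps nor any linker histone in the GABAergic step. By Illumina, the list's medians were 0.87, -0.47, -0.64, -1.60, -1.04 and -2.17 in the order of the contrasts above.

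Of the SET complex, a group of nuclear proteins that includes Hmgb2 and is cut by granzyme A, 4 of 5 other genes were tested by Illumina and 3 by Nanopore. By Illumina, Nme1 was higher in mature than in immature glutamatergic-like cells, at 0.72 (adjusted p = 0.01947), and than in radial glia-like cells, at 0.90 (adjusted p = 0.0002815), 1 of 4 beside 4.26% and 33% of all genes, and no other gene of the list was called. Nanopore, where Nme1 was not tested, called Apex1, a DNA repair endonuclease, at -0.49 in mature glutamatergic-like against radial glia-like cells (adjusted p = 0.04738), beside 38.2% of all genes. The cell cycle lists gave the frame for these values. They include the cycling markers that named a class, and their genes were not taken out of the clustering genes. Their calls thus describe how the classes were made and are no independent test. Of 20 S phase genes, by Illumina, 10 were higher in cycling-like than in radial glia-like cells, and 16 and 20 were lower in intermediate progenitor-like and mature glutamatergic-like cells. Of 20 G2/M genes, 5 were higher in the first contrast and 20 lower in each of the other 2. All genes were called at 11.6%, 15.5% and 33% in these contrasts.

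Isoforms were read from the Nanopore counts. Hmgn1 had 1 isoform only, Hmgn1-201, and 1 isoform held most UMIs of Hmgb1 (Hmgb1-201, 94.0%), Hmgb2 (Hmgb2-201, 98.1%) and Hmgn2 (Hmgn2-203, 97.5%). Hmgb3, Hmgn3 and Hmga1 were split between several. Shares have exact binomial 95% intervals, which cover counting error only.

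Hmgn3-201, the shortest reading frame, was the major Hmgn3 isoform, with 54.8% of 219 UMIs in the 190 cell and 61.7% of 1059 UMIs in the 951 cell aliquot. Over both aliquots it held 60.5%, Hmgn3-202 22.8%, Hmgn3-203 8.84% and Hmgn3-205 6.96%. By class, the share of Hmgn3-201 was 58.8% (53.7 to 63.7) in radial glia-like, 55.7% (48.0 to 63.2) in cycling-like and 48.4% (37.7 to 59.1) in intermediate progenitor-like cells. It was 63.8% (54.4 to 72.5) in immature and 68.9% (63.3 to 74.0) in mature glutamatergic-like cells, and 53.2% (38.1 to 67.9) in immature and 63.6% (40.7 to 82.8) in mature GABAergic-like cells. In radial glia-like cells, where the gene was highest, the other 3 isoforms held 26.5%, 8.40% and 5.85%.

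The isoforms with a longer end, Hmgn3-202, Hmgn3-203 and Hmgn3-205 summed, held 40.7% (35.8 to 45.8) in radial glia-like, 50.5% (39.9 to 61.2) in intermediate progenitor-like and 29.5% (24.4 to 35.0) in mature glutamatergic-like cells. The aliquots lay apart where UMIs were few. In cycling-like cells the sum was 60.0% of 40 and 39.0% of 136 UMIs, and in intermediate progenitor-like cells 64.7% of 17 and 47.3% of 74 UMIs. In mature glutamatergic-like cells it was 26.2% of 42 and 30.0% of 263 UMIs. Hmgn3-205, with the additional exon, held 12.5% (8.00 to 18.3) in cycling-like and 3.61% (1.81 to 6.36) in mature glutamatergic-like cells.

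The leading isoforms of Hmgb3, Hmgb3-202 and Hmgb3-204, share their 600 coding bases and differ in the first exon, which is untranslated. Hmgb3-202 starts with chrX:71555918-71556008 and Hmgb3-204 with the longer exon chrX:71555928-71556190. Hmgb3-202 held 57.4% and Hmgb3-204 35.6% of the gene's UMIs. The share of Hmgb3-204 was 31.5% of 591 and 36.5% of 2753 UMIs in the aliquots. It was highest in intermediate progenitor-like cells with 43.2% (36.8 to 49.8) and lowest in mature glutamatergic-like cells with 29.8% (25.9 to 33.9), while the other 5 classes of the tests lay between 34.5% and 39.4%.

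Of 164 Hmga1 UMIs in the 6 isoforms with at least 5% of the gene, 118 or 72.0% (64.4 to 78.7) came from the long form shown above. The share was 64.7% (46.5 to 80.3) of 34 UMIs in cycling-like and 73.2% (57.1 to 85.8) of 41 in mature glutamatergic-like cells, and a difference between classes was not detectable at this depth.

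**Figure D4:**
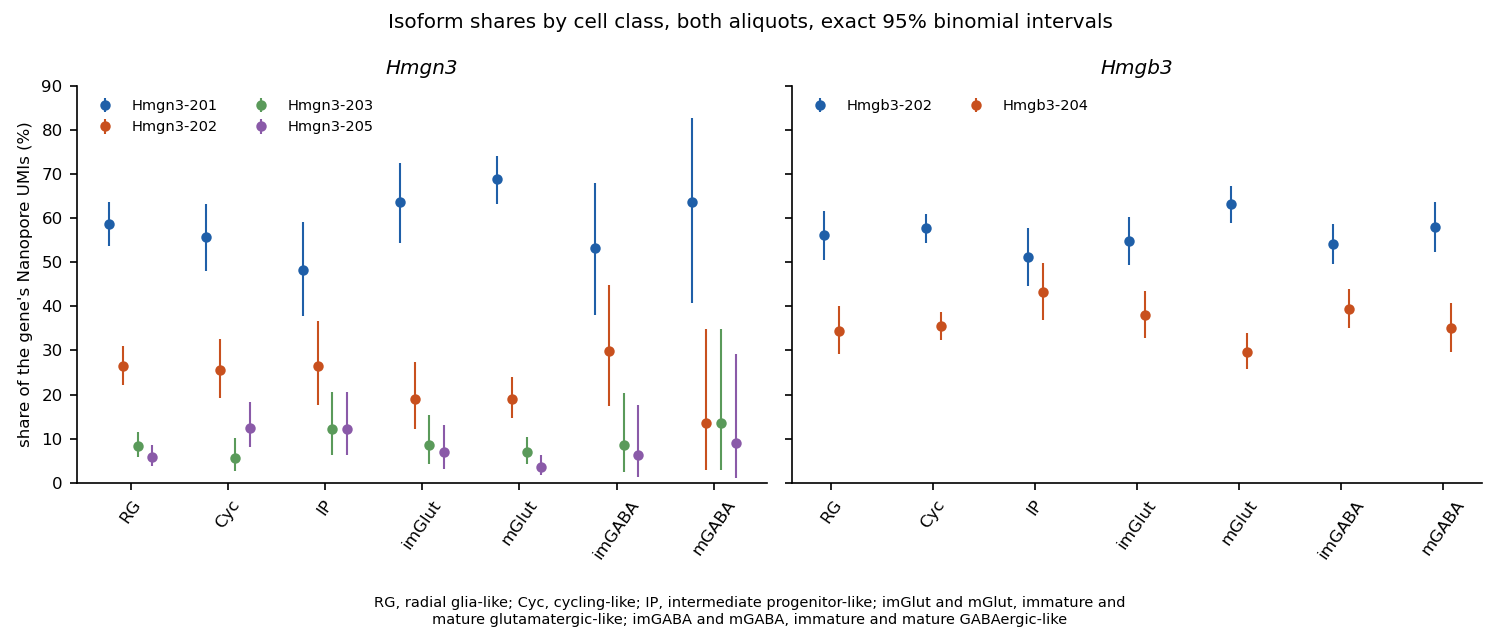
Share of the gene's Nanopore UMIs, in percent with exact 95% intervals over both aliquots, for the 4 isoforms of Hmgn3 and for Hmgb3-202 and Hmgb3-204 in each cell class. Hmgn3-201 lies between 48.4% and 68.9% in the 7 classes of the tests, and Hmgb3-204 between 29.8% and 43.2%.

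A test of isoform usage between classes covered 660 genes with more than 1 isoform, Hmgb1, Hmgb2, Hmgb3, Hmgn2 and Hmgn3 among them. No member was called in any of the 6 contrasts with the gene-level F test of edgeR, and none had an unadjusted p under 0.05. The smallest was that of Hmgb1 from immature to mature GABAergic-like cells, at 0.0741 (adjusted p = 0.7168). In the order used above, the contrasts called 3.18%, 3.79%, 2.73%, 1.82%, 0.909% and 15.3% of all genes.

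One exception came with the cells of at most 2 cycling markers, where Hmgb1 was called in cycling-like against radial glia-like (adjusted p = 0.001318), immature glutamatergic-like against intermediate progenitor-like (adjusted p = 0.03317) and mature glutamatergic-like against radial glia-like cells (adjusted p = 0.001826), in a test over 418 genes that called 2.87%, 3.11% and 14.1% of them. The setting was chosen after the data were seen, and cycling cells stayed in the cycling-like class. This test held 5 Hmgb1 isoforms in place of 4, with Hmgb1-202 added, which had not passed the count filter of the main test. The filter can pass an isoform through the class where it is high, so these p-values are not read as a difference in isoform usage. Hmgb1-202, a shorter transcript with the same 645 coding bases, had 46 UMIs in all. It took 9 of 249 Hmgb1 UMIs (3.61%, 1.67 to 6.75) in radial glia-like cells of at most 2 cycling markers and 7 of 1004 (0.697%, 0.281 to 1.43) in the others of that class. It had 13 of 773 (1.68%) in intermediate progenitor-like cells, 5 of 2850 (0.175%) in cycling-like cells and 4 of 3163 (0.126%) in mature glutamatergic-like cells. In immature glutamatergic-like cells 0 of 1112 were found, with an upper limit of 0.331%.

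The 2 platforms read most members at different levels. The Nanopore level counts only UMIs assigned to an isoform, and the Illumina level counts the UMIs listed for a gene, with or without an isoform. For Hmgn2, Nanopore still listed more UMIs than Illumina, with 1461 and 5860 against 1302 and 3598. The Illumina count is thus not a whole for this gene. The share of such differences in counting in the ratios was not tested. In all kept cells, the ratio of Nanopore to Illumina CPM was 2.04 and 2.76 for Hmgn2 in the 190 and the 951 cell aliquot. It was 1.32 and 1.197 for Hmgb1, 1.37 and 1.31 for Hmgb3, 1.27 and 1.33 for Hmgn1, and 1.42 and 1.28 for Hmgn3. Hmgb2 lay on both sides of 1, with 1.08 and 0.936. With n = 2 libraries per platform, edgeR called 5 of these 6 members as higher by Nanopore, at 1.34 ± 0.24 for Hmgn2 (adjusted p = 0.005809), with the other 4 from 0.46 to 0.55. Hmgb2 stood at 0.15 ± 0.34 (adjusted p = 0.7397). Of 9841 genes tested, 50.5% were called, with a median of -0.04 over all genes.

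Gm10282 at chr8:72304110-72305260, a protein-coding copy with 99.3% identity to Hmgn2 over 1151 bases, had 158 and 178 Illumina UMIs and 0 Nanopore UMIs. When this copy was added to Hmgn2 on both platforms, the ratio went to 1.82 and 2.63. Reads that fit both genes can be missing from both counts, so this shift does not bound the uncertainty of the Illumina level of Hmgn2. Over all kept cells, Hmga1 was counted 15 and 42 times by Illumina and 25 and 149 times by Nanopore. It is left out of the comparison of platforms because its Illumina level is uncertain, since reads that fit more than 1 gene can be missing from it.

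Hmgb1 has 43, Hmgb2 5 and Hmgb3 1 annotated pseudogenes of at least 95% identity over at least 300 bases, and none of these is listed in either table. For Nanopore, the paper removed reads with poor genome alignments before a consensus was made. How Illumina reads that fit a member and its pseudogenes were counted is not given in the sources used here. Exons of other genes overlap those of Hmgb1 (Uspl1 on the other strand over up to 42 bases), Hmgn3 (Gm29054 on the other strand over up to 255 bases) and Hmga1 (AI413582 on the other strand over up to 102 bases), and reads from such overlaps cannot be told apart without strand. Mm2pr overlaps Hmgb1 on the same strand over up to 37 bases, where strand does not tell them apart.

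**Figure D5:**
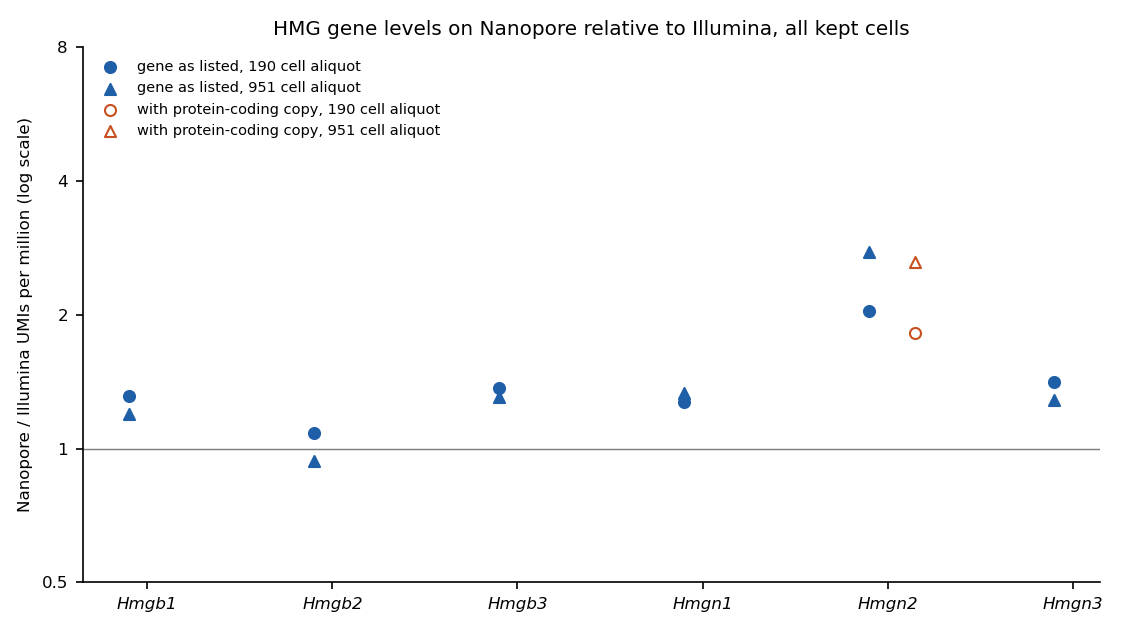
Ratio of Nanopore to Illumina level, each in CPM over all kept cells, for 6 HMG genes on a log axis, 1 point per aliquot, with the protein-coding copy summed as a second value for Hmgn2. Hmgb2 lies at 1.08 and 0.936, and Hmgn2 at 2.04 and 2.76, or at 1.82 and 2.63 with its copy. Nanopore levels count only UMIs assigned to an isoform.

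Hmgn2 was highest in cycling-like and lowest in mature glutamatergic-like cells on both platforms, in spite of this offset. By Nanopore it had 4372 and 4189 CPM in cycling-like, 1731 and 2061 CPM in radial glia-like, 1561 and 1486 CPM in intermediate progenitor-like and 260.3 and 354 CPM in mature glutamatergic-like cells. Its aliquots lay apart in immature GABAergic-like cells here too, with 1836 and 1059.7 CPM. Hmgn3 had 730.4 and 647 CPM in radial glia-like and 226 and 237 CPM in cycling-like cells by Nanopore. Hmga1 ranged from 0 to 61.0 CPM in the classes of the tests, with overlap between neighbours throughout.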

How the data were processed

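The UMI counts had been deposited by the authors without normalization, as whole numbers per cell and gene (Illumina, Cell Ranger 2.0 on mm10) or per cell and Gencode vM18 isoform (Nanopore, minimap2, with Illumina barcodes as a guide and 1 consensus per UMI). A Nanopore UMI was counted where it was assigned to an isoform, and its gene level is the sum of the isoforms of a symbol. UMIs without an isoform were not used here. Whether the Illumina counting used strand is not given in the sources used here.

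Cells were clustered with Seurat 5.3.0 (scaled to 10000 UMIs, 2000 variable genes without the members, 11 dimensions, resolution 0.8). Naming a cluster took at least 3 markers detected in 10% of its cells and raised by 0.5 (log2 of CPM + 10), with a lead of 0.2 over any other class that met this and no other class with more markers among the 10 leading genes. Scrublet, run in scanpy 1.11.5, marked 3 and 4 doublets, which were kept. Counts were summed per aliquot for 7 classes, each of 5 cells or more per aliquot, and fitted together with edgeR 4.0.16 in R 4.3.3 (TMM, filterByExpr, robust quasi-likelihood). Isoform usage was tested with diffSpliceDGE. DESeq2 1.42.0, other filters, resolutions and cell sets were alternatives. Each aliquot was left out in turn for folds without a test. Copies were found with blastn 2.17.0. Python 3.11.15 was used (pandas 2.3.3, numpy 2.4.6, scipy 1.17.1, matplotlib 3.10.9).

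The aliquot number pairs the samples, since sums with the same number share an emulsion aliquot and a library, and the platforms share droplets. Over 21 class pairs, deviations from the class means had a median correlation of 0.186 by Illumina (0.142 to 0.319) and 0.0685 by Nanopore (0.0191 to 0.146). Between platforms it was 0.596.

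The tests were checked on simulated counts with known changes. For cycling-like against radial glia-like cells, 18% of 2-fold and 69% of 4-fold changes were called by Illumina. Nanopore called 36% and 76% of them. The changed genes were drawn from all genes past the count filter, at any level, so these shares do not hold for each member. In this contrast, the Illumina SE of the members that were not called was 1.07 for Hmga1, 0.28 for Hmgb2 and 0.18 for Hmgn1. An uncalled member with a wide SE, such as Hmga1, can still differ by 2-fold. For isoform usage, the 2 leading isoforms of a gene exchanged levels. Of these genes 96.8% were called where the isoforms differed at least 2-fold, and 34.2% where they differed less. Of 158 genes called, 12 had no change. A full exchange is larger than the shifts in share given for the members, so such shifts can go uncalled. The members and gene lists were chosen with earlier results of these data known. Named were all members with their isoforms of at least 5%, up to 4 called genes of the other HMG, linker histone and SET complex lists each way, the 3 nearest genes of each member, and, after their values were seen, Hmgb1-202 and the coding copy of Hmgn2. A result that bears on the level of Hmga1 is not reported here.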

Additional observations from a re-analysis of the deposited data

How the results depend on the processing

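Of 948 log2 differences of members under the alternatives, 811 kept their direction and call (with 1 aliquot left out, their value within the spread), and leaving out 1 aliquot turned the sign of none of the 32 called differences. Of all 84, 8 changed sign, none of them called, the widest being Hmga1 in mature glutamatergic-like against radial glia-like cells by Illumina (from -0.54 to 0.44 without the 190 cell aliquot). Tests rest on 2 aliquots of 1 suspension, and members with few UMIs (Hmga1, Hmgn3 in GABAergic-like cells) have wide errors. Below, contrasts are cycling-like, intermediate progenitor-like and mature glutamatergic-like against radial glia-like, immature glutamatergic-like against intermediate progenitor-like, and the glutamatergic and GABAergic maturation steps. Unless a value shows it, the cause of a change was not tested.

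With the replicate block, Illumina genes called went to 1644 (cycling), 854 (immature glutamatergic), 980 (glutamatergic maturation, with 3 members called) and 477 (GABAergic maturation, 4 members). For Nanopore it called 4 members in the intermediate progenitor contrast, 516 genes with 2 members in the immature glutamatergic, 603 with 4 in the glutamatergic and 289 with 4 in the GABAergic step. Isoform usage calls with the block were 36 (cycling), 39 (intermediate progenitor), 28 (immature glutamatergic), 35 and 11 (maturation steps). Pairing by aliquot changed no member call other than those given beside the results.

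DESeq2 called 291, 580, 159 (1 member), 98, 79 (0 members) and 1538 genes by Illumina in the order of the report, 206, 352, 107 (2 members), 66 (1 member), 55 and 953 by Nanopore, and 3064 between platforms. Hmgb1 turned to -0.034 in the Illumina glutamatergic step. Its difference there lay near 0 and also turned without a filter on low counts (-0.01), with members kept among the variable genes (-0.016), at resolutions 0.5 (-0.032) and 1.2 (-0.026), with the unnamed cluster added to immature glutamatergic-like cells (-0.042) and with cells of at most 2 cycling markers (-0.002).

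With cells of at most 2 cycling markers, chosen after seeing the data, the intermediate progenitor contrast called 681 genes and 1 member by Illumina (Hmgb1 0.39, Hmgb3 0.36, Hmgn1 0.20, Hmgn2 0.60) and 480 and 1 by Nanopore (Hmgb1 0.37, Hmgn1 0.26, Hmgn2 0.43). The immature glutamatergic contrast gave Hmgb1 0.026 by Illumina, and 2 members called and Hmgb3 at 0.001 by Nanopore. The Illumina glutamatergic step called 1 member, Hmgb2 at -1.10 (adjusted p = 0.01401). Mature glutamatergic-like against radial glia-like cells called 1563 genes and 3 members by Illumina (Hmgb1 0.41) and 1020 and 3 by Nanopore (Hmgb1 0.39). Isoform usage called 12 genes with 1 member (cycling), 15 (intermediate progenitor), 1 member (immature glutamatergic), 2 (GABAergic step) and 59 with 1 member (mature glutamatergic against radial glia-like).

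Without a filter on low counts, Hmgb3 was at 0.017 in the Illumina intermediate progenitor contrast, 1 member was called in the Illumina glutamatergic step, 2 in the Nanopore immature glutamatergic contrast, and Hmgb1 was at 0.015 in the Nanopore glutamatergic step. Isoform usage then called 3 (immature glutamatergic), 1 and 0 (maturation steps) and 175 genes (mature glutamatergic against radial glia-like). Without doublets, Hmga1 was at 0.45 (intermediate progenitor) and 0.25 (mature glutamatergic against radial glia-like). The Illumina immature glutamatergic contrast called 1 member with members kept among the variable genes, with cell cycle genes out of them, without cells of shared barcodes and with the unnamed cluster added, and 748 genes at resolution 1.2. The Illumina glutamatergic step called 1 member with members kept among the variable genes or the unnamed cluster added, and Hmgb3 was at 0.089 at resolution 1.2. The Illumina GABAergic step called 0 members with cell cycle genes out, and 1 at either resolution, without cells of shared barcodes (3 genes for isoform usage) and with the unnamed cluster added. At either resolution and with this cluster added, the 1 member called was neither Hmgb2 nor Hmgn2, which lost their calls there. That addition also gave 485 Nanopore genes with 2 members in the immature glutamatergic contrast. The Simes combination called 16 (intermediate progenitor), 8 (immature glutamatergic), 6 and 2 (maturation steps) genes for isoform usage. At resolution 0.5 no cluster was intermediate progenitor-like, so contrasts with that class have no value.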

Other observations

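Cells outside the tested classes also held HMG transcripts. The Cajal-Retzius-like cluster of 4 and 13 cells, whose namesake cells are early-born Reln neurons of the marginal zone, had 189 and 295 CPM of Hmgn3 by Illumina and 247 and 418 CPM by Nanopore, which lay above the mature glutamatergic-like and below the radial glia-like values on both platforms. Its Hmgb1 level was 709 and 1029 CPM by Illumina, below the lowest class of the tests. The unnamed cluster of 15 and 69 cells had 1554 and 1256 CPM of Hmgb1, 108 and 60.2 CPM of Hmgb2 and 135 and 129 CPM of Hmgn3. These clusters were not tested.

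Hmgb2 was higher in the 190 cell aliquot than in the 951 cell aliquot in 6 of the 7 classes by Illumina. The summed G2/M list was higher there in 7 of the 7 classes, and the summed S phase list in 4. The S phase list was lower there in radial glia-like (1681 and 2054 CPM), cycling-like (3426 and 3753 CPM) and immature glutamatergic-like cells (454 and 472 CPM). Gm10282, the coding copy of Hmgn2, had 158 UMIs in the 190 cell aliquot and 178 in the 951 cell aliquot, although the second held 8295650 Illumina UMIs against 1809081. What sets the aliquots apart was not tested.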
